A study of Mus musculus with 9 samples.

Results

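Untreated liver of leptin-deficient ob/ob mice was compared with untreated liver of wild-type mice, across all transcript clusters measured. The 6 arrays, of 9 in all, were chosen by their titles, which give ob/ob or C57BL/6JHamSlc-+/+ mice and vehicle. The study used male mice bought at an age of 6 weeks, C57BL/6JHamSlc-ob/ob as the obese strain and C57BL/6JHamSlc-+/+ as the lean one, all on standard chow. After acclimatisation, 3 ob/ob and 3 wild-type mice received vehicle for 42 days, and 3 further ob/ob mice received an extract of Vigna umbellata (VE), a bean, by oral gavage at 100 mg/kg. Total RNA of liver, 100 ng per sample, was hybridised to Clariom S mouse arrays, which give 1 value per transcript cluster. The VE arrays entered only through the shared estimate of the spread. The design text states 3 samples for each group, and an array is counted here as a mouse, although the labels name no single animals. The p-values then measure the spread between these samples only.

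Leptin is a hormone of fat cells that acts mainly on the hypothalamus to limit food intake and to adjust endocrine output. Mice homozygous for the ob mutation make no functional leptin, overeat, become obese and insulin resistant, and store triglyceride in the liver. Growth hormone secretion is also low in them. The liver takes the male or the female expression pattern from the time course of circulating growth hormone, so male-biased genes need its pulses and female-biased genes are held down by them. The mutation is present in every tissue from conception, so a direct effect of leptin on liver and the effects of obesity cannot be told apart in this model.

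All values are log2 expression, and a difference of 1 on this scale is a factor of 2. A gene was called at a Benjamini-Hochberg adjusted p under 0.05 in limma's moderated test over all 22206 clusters. Array medians lay between 5.07 and 5.36. Wild type 3 and ob/ob 3 stood apart from their groups: they correlated with the other arrays of their group at 0.948 to 0.955, against 0.98 or more between the remaining pair of each group. Wild type 2 carried skeletal muscle transcripts, with a median of 9.69 over 16 muscle markers against 3.88 to 4.71 on the other 5 arrays. The genes of olfactory receptors (1091 clusters), which liver does not use, gave a working floor. The upper end of their middle 95% lay between 5.35 and 6.62 on these arrays, and a level below it on the same array is described here as within the olfactory range. Detection calls were not used here. The tissue label was checked against hepatocyte markers, whose median was 18.97 to 19.68 on the 6 arrays, with albumin at the top value of every array.

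Of 22206 clusters 658 were called (2.96%), 507 of them higher in ob/ob (2.28%) and 151 lower (0.68%). The 3 values of each group did not overlap in any of the 658, against 19.5% of all clusters without overlap (9.71% with ob/ob higher, 9.78% with ob/ob lower). The calls were made from the same values, so this is no separate support for them. The median difference of the called clusters was 1.95 for those that rose and -2.01 for those that fell, beside -0.06 for all clusters, of which 44.2% were positive. A difference over 2 was reached by 240 of the rises and 76 of the falls, and one over 4 by 40 and 15. For 63 of the rises all wild-type values lay within the olfactory range, and for 31 of the falls all ob/ob values did. Their sizes are at best lower bounds. Among the 7674 clusters above that range on every array of at least 1 group, 7.84% were called, 6.15% higher and 1.69% lower. Of the calls 77.1% were rises, but 53.1% after quantile normalization (290 higher, 256 lower), so the balance of rises and falls depended on the scaling.

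**Figure D1:**
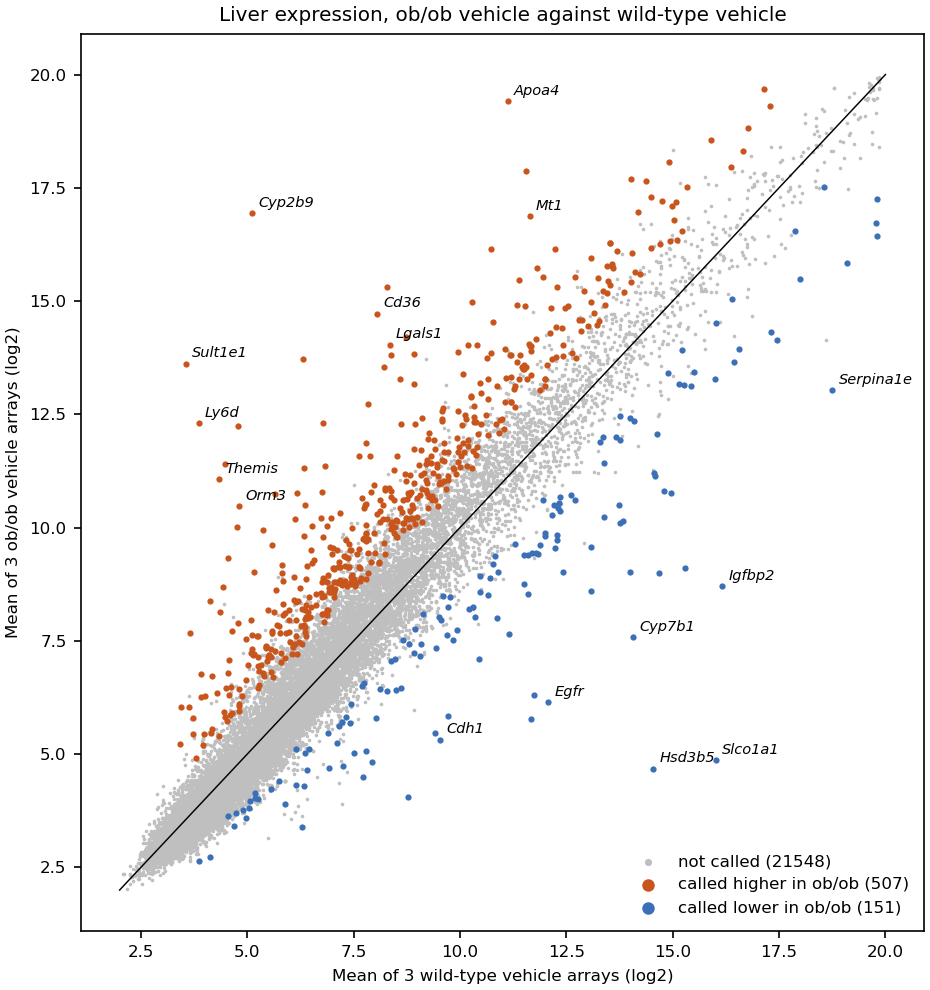
Mean log2 expression of every transcript cluster in wild-type vehicle liver (x axis, 3 arrays) against ob/ob vehicle liver (y axis, 3 arrays), with the line of equal means. Orange points were called higher in ob/ob (507), blue points lower (151) and grey points were not called; Slco1a1 and Hsd3b5 fell to the level of olfactory receptors, and Cyp2b9, Sult1e1 and Ly6d rose from it.

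The number of calls moved with single arrays. It was 173 without ob/ob 1, 186 without ob/ob 2, 1679 without ob/ob 3, 147 without wild type 2 and 262 without wild type 3. Without a VE array it was 435 (VE 1), 327 (VE 2) or 404 (VE 3), and without wild type 1 it was 887. The description below leads with the 127 clusters that were called whichever of the 9 arrays was left out, 88 higher and 39 lower. Such genes are described as stable. None of the 658 changed direction under any of the alternatives fitted. Because their groups do not overlap, leaving out, weighting or blocking arrays and filtering clusters could not have reversed them. Only the normalizations and the covariate could.

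The 2 largest falls were in genes of steroid and anion handling that male mouse liver expresses more than female liver. Slco1a1 encodes an uptake transporter for bile salts and steroid sulfates. Its level was 16.15, 15.66 and 16.21 on the wild-type arrays and 4.46, 4.34 and 5.77 on the ob/ob arrays. All ob/ob values lay within the olfactory range, and the difference was -11.15 (SE 0.39, adjusted p = 2.94e-07). Hsd3b5, a steroid dehydrogenase of the male liver, stood at 15.08, 14.72 and 13.82 in wild type and at 4.66, 4.44 and 4.93 in ob/ob. The ob/ob values were again within that range (difference -9.86, SE 0.33, adjusted p = 2.94e-07). Both are stable, and the gaps between groups were many times the spread within them. The promoter of Slco1a1 is shown because this gene had the largest fall of all genes with a symbol. It is the 250 bases before the start in RefSeq's GRCm38.p6, chr6:141946963-141947212 on the minus strand. Capitals mark AGGTCA on either strand, the half-site read by many nuclear receptors, which 13.8% of 27025 promoters hold.
Slco1a1: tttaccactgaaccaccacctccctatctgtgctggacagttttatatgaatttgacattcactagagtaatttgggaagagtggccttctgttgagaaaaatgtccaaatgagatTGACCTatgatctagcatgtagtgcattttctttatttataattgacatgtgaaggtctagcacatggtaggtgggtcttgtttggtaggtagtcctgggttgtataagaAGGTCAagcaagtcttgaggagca
It has 2 matches, and the same window of Hsd3b5 has 0. Of the promoters of called genes, 13.8% of 384 that rose and 11.7% of 103 that fell hold the half-site, beside 13.8% of all promoters and 12.3% of those of genes on the array. Of the male-biased genes 4 of 18 promoters hold it (22.2%; called members 3 of 11), and of the female-biased genes 6 of 23 (26.1%; called members 4 of 11). These sets are small, and their shares were not tested. The site of the growth hormone effector STAT5, TTCNNNGAA, is in 7.18% of all promoters, in 3.65% of those that rose and in 7.77% of those that fell, and in neither Slco1a1 nor Hsd3b5. A match is a description of these letters and not a bound site.

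The gene lists here and below were chosen with earlier results of these data known, so their counts are descriptive only. The male-biased list had 25 measured genes, of which 15 fell and none rose, with a median difference of -2.72 over all 25. Not all went this way: 21 differences were negative and 4 positive. Without overlap 16 genes were lower and 1 higher, beside 9.78% and 9.71% of all clusters. With array weights, or without ob/ob 3, 1 gene of this list was called higher. The stable ones were 9: Slco1a1, Hsd3b5, Cyp7b1, Elovl3, Serpina1e, C6, Egfr, Selenbp2 and Susd4. Cyp7b1, the oxysterol hydroxylase of the alternative bile acid pathway, was at 14.16, 14.62 and 13.39 in wild type and 7.37, 7.21 and 8.18 in ob/ob (difference -6.47, SE 0.39, adjusted p = 2.39e-05). Elovl3, an elongase of very long fatty acids, was at 15.21, 13.71 and 15.11 against 8.63, 9.96 and 8.40 (difference -5.68, SE 0.71, adjusted p = 0.00385). In both genes the lowest wild-type value was more than 3 above the highest ob/ob value. Serpina1e, a member of the alpha-1 antitrypsin family, stood at 19.33, 19.57 and 17.36 in wild type, where array 3 was lower, and at 13.48, 13.20 and 12.43 in ob/ob (difference -5.72, SE 0.59, adjusted p = 0.00113). Selenbp2 and Susd4 fell by 2.72 (SE 0.36) and by 2.23 (SE 0.28), at adjusted p = 0.00473 and 0.00397. Selenbp2 lay within the olfactory range on every ob/ob array. The major urinary protein genes Mup20 and Mup21, which encode pheromone carriers, fell by 3.04 (SE 0.50) and 3.26 (SE 0.57) with ob/ob 3 the highest ob/ob array, at 18.04 and 17.21. Mup20 was at the array's top value on wild type 2 and 3, so its fall may be understated. Calls in this list were lost without ob/ob 1 (4 lost), ob/ob 2 (5 lost), wild type 1 (1 lost), wild type 2 (6 lost), wild type 3 (2 lost), VE 2 (2 lost) or VE 3 (1 lost), at adjusted p between 0.0508 and 0.146. Serpina12, which encodes the adipokine vaspin, was also lost with the replicate number as a block (adjusted p = 0.0643). Of the remaining 10, Nudt7, a peroxisomal coenzyme A hydrolase, was at -2.37 (SE 0.65, adjusted p = 0.0871) without overlap.

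The called female-biased genes moved the other way. Of 30 measured, 15 rose and 0 fell, with a median difference of 2.17 over all 30. Of these differences 25 were positive and 5 negative. Without overlap 21 genes were higher and 1 lower, beside 9.71% and 9.78% of all clusters. The stable ones were 7: Cyp2b9, Cyp2b13, Cyp2c39, Cyp2a22, Sult1e1, Sult2a2 and Hao2. Cyp2b9, a cytochrome P450 of female liver, was at 5.65, 5.62 and 4.10 in wild type and 17.30, 17.85 and 15.66 in ob/ob (difference 11.81, SE 0.58, adjusted p = 5.51e-06). Of the wild-type values 2 lay within the olfactory range, so the size may be a lower bound. Cyp2b13 was at 5.73, 5.36 and 7.81 against 13.80, 15.68 and 11.71, with array 3 the highest in wild type and the lowest in ob/ob (difference 7.43, SE 0.98, adjusted p = 0.00446). These neighbours on chromosome 7 are near copies, and their promoters are shown because they differ at only 2 of 250 positions (99.2% identity). In GRCm38.p6 they lie on the plus strand, at chr7:26173159-26173408 for Cyp2b9 and chr7:26061245-26061494 for Cyp2b13. Capitals mark the positions that differ.
Cyp2b9: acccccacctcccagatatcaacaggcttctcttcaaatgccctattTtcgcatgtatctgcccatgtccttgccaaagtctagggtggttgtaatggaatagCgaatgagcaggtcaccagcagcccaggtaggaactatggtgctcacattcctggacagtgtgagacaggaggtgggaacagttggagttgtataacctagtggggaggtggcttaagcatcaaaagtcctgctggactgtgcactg
Cyp2b13: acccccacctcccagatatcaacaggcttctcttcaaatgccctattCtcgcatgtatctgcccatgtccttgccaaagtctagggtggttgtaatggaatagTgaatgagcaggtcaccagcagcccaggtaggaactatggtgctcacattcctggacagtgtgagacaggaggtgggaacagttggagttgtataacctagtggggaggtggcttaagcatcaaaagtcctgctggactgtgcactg
Probes can read both of such copies, so how much of the rise belongs to each gene is uncertain. The same holds for the Mup, Serpina1, Sult2a, Gstm, Gstp and Orm families and for Cyp2a4 with Cyp2a5.

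A pair of steroid sulfotransferases rose from levels in or near the olfactory range. Sult1e1, which inactivates estrogens, was at 3.71, 3.36 and 3.61 in wild type and 14.20, 10.87 and 15.80 in ob/ob, where the 3 mice spread over almost 5 units (difference 10.06, SE 0.96, adjusted p = 0.000766). Sult2a2, a hydroxysteroid sulfotransferase, was at 3.59, 5.87 and 3.98 against 10.85, 12.05 and 11.34 (difference 6.93, SE 0.74, adjusted p = 0.00145). Sult1e1 lay within the olfactory range on all wild-type arrays and Sult2a2 on 2. Cyp2a22 was at 9.09, 8.78 and 8.85 in wild type and 13.93, 14.22 and 13.37 in ob/ob (difference 4.93, SE 0.29, adjusted p = 2.09e-05). Cyp2c39 was at 8.59, 7.81 and 6.94 against 12.35, 11.99 and 11.25 (difference 4.08, SE 0.46, adjusted p = 0.0023). Hao2, a peroxisomal hydroxyacid oxidase, rose from within the olfactory range to 6.34, 6.13 and 5.69, where the value of ob/ob 3 still lay within the range of its array (difference 2.61, SE 0.30, adjusted p = 0.00226). Calls of the other 8 were lost without ob/ob 1 (5 lost), ob/ob 2 (6 lost), wild type 1 (1 lost), wild type 2 (8 lost), wild type 3 (5 lost), VE 1 (2 lost), VE 2 (3 lost) or VE 3 (2 lost), at adjusted p between 0.0508 and 0.154. Among them Cyp17a1, the steroid hydroxylase and lyase, had the widest wild-type spread, 10.71, 9.51 and 4.90, against 14.57, 13.89 and 12.96 (difference 5.43, SE 1.16, adjusted p = 0.0365).

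Most genes of the growth hormone axis itself were not called. Of 16 measured genes of the growth hormone and insulin-like growth factor axis 2 fell, and 0 rose. At an unadjusted p under 0.05 in limma 5 were lower and 0 higher. Without overlap 5 were lower and 0 higher, beside 9.78% and 9.71% of all clusters. The median difference of the 16 was -0.18. Igfbp2, a binding protein of these factors whose liver expression leptin is known to raise, was at 15.48, 16.72 and 16.32 in wild type and 8.21, 9.90 and 8.01 in ob/ob (difference -7.47, SE 0.55, adjusted p = 0.000106). It is stable. Onecut1, the gene of hepatocyte nuclear factor 6, was at -3.50 (SE 0.67, adjusted p = 0.0246), and this call was lost without ob/ob 1 (1 lost), ob/ob 2 (1 lost), wild type 1 (1 lost), wild type 2 (1 lost) or VE 2 (1 lost), at adjusted p between 0.0522 and 0.107. Values of Ghr and Igf1, which the naming rule does not take in, are given because they lead the axis. Ghr, the receptor, was at 16.28, 15.44 and 15.54 against 16.68, 16.21 and 14.38, and Igf1 at 16.99, 17.16 and 16.08 against 16.93, 16.37 and 15.50. Their differences were 0.00 (SE 0.59) and -0.48 (SE 0.54), and the groups overlapped. Socs2, the feedback inhibitor that growth hormone induces, was at 7.15, 7.78 and 8.18 against 6.51, 6.44 and 6.54, without overlap but not called (difference -1.21, SE 0.41, adjusted p = 0.161). Lep lay within the olfactory range on every array (2.58 to 3.67), and the ob mutation leaves its transcript in place, so it does not check the genotype. Lepr, the leptin receptor, was at 6.23, 5.70 and 6.03 against 5.88, 4.47 and 5.40 (difference -0.74, SE 0.35, adjusted p = 0.316). Of 19 genes of insulin and leptin signalling 0 were called by limma, and 4 were higher at an unadjusted p under 0.05. Insr, the insulin receptor, also outside the rule, was at 13.17, 12.67 and 10.12 in ob/ob, around the wild-type values of 12.04, 12.36 and 12.03.

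Epidermal growth factor receptor fell with the male-biased genes. Egfr was at 12.44, 12.90 and 10.88 in wild type and 6.57, 5.85 and 6.04 in ob/ob (difference -5.92, SE 0.72, adjusted p = 0.00326). It was the 1 called gene of 12 in the list of the receptor family and its ligands. Of its relatives, Erbb2 lay at 3.33, 3.16 and 2.76 against 2.65, 2.62 and 2.43, within the olfactory range. Lifr, the receptor of leukemia inhibitory factor, was at 13.28, 14.27 and 13.75 against 10.41, 10.34 and 9.56 (difference -3.66, SE 0.37, adjusted p = 0.00101), and is stable.

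In lipid metabolism the called genes covered uptake, storage, synthesis and breakdown of fatty acids. Cd36, the membrane fatty acid transporter, was at 8.06, 7.68 and 8.40 in wild type and 14.61, 14.46 and 15.09 in ob/ob (difference 6.67, SE 0.27, adjusted p = 1.17e-06). Each group spanned less than 1, and array 3 was the highest in both. It was the stable one of 3 called among 14 uptake and binding genes. The fatty acid binding proteins Fabp4 and Fabp5, better known from fat cells and macrophages, differed by 1.89 (SE 0.36) and -1.72 (SE 0.30). Those calls were lost without ob/ob 1 (2 lost), ob/ob 2 (1 lost) or wild type 2 (2 lost), at adjusted p between 0.0515 and 0.0773, and Fabp4 also after quantile normalization (adjusted p = 0.1). Pparg encodes the lipid-sensing nuclear receptor PPAR gamma. Its levels were 6.37, 7.09 and 6.11 against 10.93, 10.57 and 8.61, with ob/ob 3 the lowest of its group (difference 3.51, SE 0.54, adjusted p = 0.00922). It was the 1 called gene of 18 liver transcription factors, and stable. That count depended on the fit. With the interquartile range of each array as a covariate 6 of the 18 were called lower. Their median difference then went from -0.07 to -1.34.

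Of 17 lipid droplet genes 4 rose and 0 fell. Cidea, a protein of droplet fusion, was at 4.96, 5.02 and 4.33 in wild type, within the olfactory range, and at 10.56, 8.80 and 10.68 in ob/ob (difference 5.24, SE 0.63, adjusted p = 0.00306). Fitm1, which partitions triglyceride into droplets, was at 5.75, 5.34 and 4.70 against 7.37, 8.06 and 7.37 (difference 2.34, SE 0.35, adjusted p = 0.00795). Both are stable. Cidec, a relative of Cidea and a target of PPAR gamma, was at 5.62, 6.37 and 6.50 against 11.89, 11.10 and 9.33 (difference 4.61, SE 1.00, adjusted p = 0.0402). The coat protein gene Plin2 was at 11.86, 12.39 and 12.58 against 15.82, 15.71 and 14.43 (difference 3.04, SE 0.70, adjusted p = 0.0465). For Cidec and Plin2 ob/ob 3 lay below ob/ob 1 and 2, and their calls were lost without ob/ob 1 (2 lost), ob/ob 2 (2 lost), wild type 1 (2 lost), wild type 2 (2 lost), wild type 3 (2 lost), VE 1 (1 lost) or VE 2 (2 lost), at adjusted p between 0.0574 and 0.163. Of 14 genes of triglyceride synthesis 3 rose and 1 fell. Mogat1, a monoacylglycerol acyltransferase, was at 6.70, 5.21 and 5.55 against 9.26, 8.90 and 8.80 (difference 3.17, SE 0.40, adjusted p = 0.00397) and is stable. Gpam and Agpat2, which add the first and the second acyl chain to glycerol phosphate, differed by 2.78 (SE 0.60) and 2.62 (SE 0.45). Lpin1, a phosphatidate phosphatase and coactivator, was at 13.31, 13.94 and 13.98 against 11.36, 10.50 and 9.62 (difference -3.25, SE 0.58, adjusted p = 0.0178). These 3 calls were not stable: they were lost without ob/ob 1 (2 lost), ob/ob 2 (3 lost), wild type 2 (3 lost), wild type 3 (3 lost) or VE 2 (1 lost), at adjusted p between 0.057 and 0.153.

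Of 18 genes of fatty acid synthesis 3 rose and 1 fell, and none is stable. Elovl6, the elongase of palmitate, was at 12.54, 10.45 and 9.16 in wild type and 17.01, 17.05 and 14.39 in ob/ob (difference 5.43, SE 0.87, adjusted p = 0.0117). Acly and Acaca, which make acetyl and malonyl coenzyme A in the cytosol, differed by 2.76 (SE 0.61) and 2.04 (SE 0.46). Mlxipl, which encodes the sugar-responsive factor ChREBP, was at 13.43, 15.09 and 15.16 against 11.76, 12.23 and 9.65 (difference -3.35, SE 0.65, adjusted p = 0.0267). Calls were lost without ob/ob 1 (4 lost), ob/ob 2 (3 lost), wild type 2 (4 lost), wild type 3 (3 lost), VE 1 (2 lost), VE 2 (3 lost) or VE 3 (2 lost), at adjusted p between 0.0531 and 0.164, while 9 genes were called without ob/ob 3. The fit on only the 6 arrays called 0 of the 18, quantile normalization left 1 higher and 1 lower, and with the replicate number as a block 6 rose and 1 fell. Fatty acid synthase, Fasn, was one of those gained, and is named for that: it stood at 13.42, 12.19 and 9.56 against 15.45, 15.60 and 13.24, and its difference of 3.04 had an adjusted p of 0.134 without the block and 0.00467 with it. Within each replicate number ob/ob was higher, although the labels do not say that same-numbered arrays are pairs. Across numbers the groups overlapped, at 13.24 on ob/ob 3 and 13.42 on wild type 1. Scd1, the stearoyl desaturase, was at the top value of all 6 arrays, so no change could be read.

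Of 25 genes of fatty acid oxidation 9 rose and 16 were not called. All 25 had a positive difference, with a median of 1.26, while 44.2% of all clusters were positive. Many of those clusters lay within the olfactory range. Fitted on only the clusters above it in 1 group, the median difference was 0.26. The stable ones were 4. Slc25a20, the carnitine carrier of the mitochondrial inner membrane, was at 9.56, 8.88 and 8.64 against 11.67, 11.35 and 11.11 (difference 2.35, SE 0.32, adjusted p = 0.00525). Acadm, the medium-chain dehydrogenase, was at 9.39, 9.55 and 9.32 against 12.06, 12.11 and 11.05 (difference 2.32, SE 0.34, adjusted p = 0.00795). The peroxisomal thiolase Acaa1b rose by 2.22 (SE 0.32, adjusted p = 0.00647). Vnn1, a pantetheinase that responds to PPAR alpha, was at 6.49, 5.78 and 6.75 against 11.44, 12.52 and 9.99 (difference 4.98, SE 0.64, adjusted p = 0.00397). The other 5 were Hadh and Decr1 of the mitochondrion, Ehhadh and Pex11a of the peroxisome and Cyp4a14 of the endoplasmic reticulum, with differences of 2.00 to 3.30. For Hadh, Ehhadh, Cyp4a14 and Pex11a ob/ob 3 was more than 1 below the other ob/ob arrays. Calls were lost without ob/ob 1 (5 lost), ob/ob 2 (5 lost), wild type 1 (2 lost), wild type 2 (5 lost), wild type 3 (4 lost), VE 1 (2 lost), VE 2 (1 lost) or VE 3 (1 lost), at adjusted p between 0.0521 and 0.161, whereas 17 were called without ob/ob 3. Of 4 genes of ketone metabolism Slc16a1, the monocarboxylate transporter MCT1, was called (difference 1.89, SE 0.30, adjusted p = 0.0113), and it was lost without ob/ob 1 (adjusted p = 0.0541). The respiratory chain list gave 0 calls of 25 in limma (6 higher at an unadjusted p under 0.05), with a median difference of 0.28 that turned to -0.06 after quantile normalization.

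Among 15 genes of apolipoproteins and lipoprotein handling 1 rose and 1 fell, both stable. Apoa4, which liver secretes on triglyceride-rich particles, was at 12.08, 11.09 and 10.19 in wild type and 19.83, 19.23 and 19.21 in ob/ob (difference 8.30, SE 0.63, adjusted p = 0.000131). Apom, the carrier of sphingosine phosphate in high-density lipoprotein, was at 9.78, 9.77 and 8.67 against 5.51, 6.23 and 4.66 (difference -3.94, SE 0.51, adjusted p = 0.00397). Apoa2 and Apoe were at the top value on all 6 arrays and could not be compared. Apoa1 was at the top value on every wild-type array and at 18.91, 17.52 and 18.79 in ob/ob, and was not called (adjusted p = 0.114). Of 16 cholesterol genes Insig2, a sensor that holds back the sterol response, rose (difference 2.25, SE 0.40, adjusted p = 0.0182), and was lost without ob/ob 1 (1 lost), ob/ob 2 (1 lost) or wild type 2 (1 lost), at adjusted p between 0.0781 and 0.0834.

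**Figure D2:**
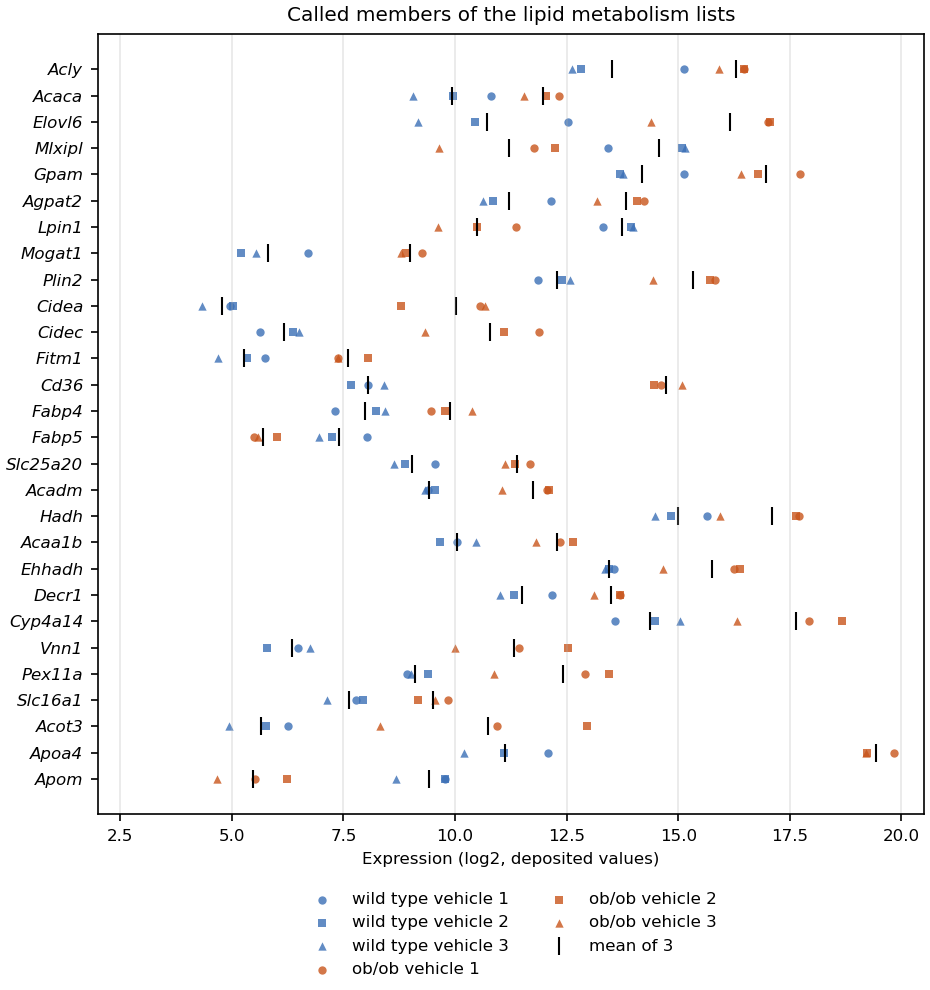
Log2 expression of every called member of the lipid lists (synthesis, triglyceride, droplet, uptake, oxidation, ketone, thioesterase and apolipoprotein genes), 1 point per array with a bar at each group mean. Cd36 and Apoa4 have the widest gaps between groups, and in oxidation genes such as Hadh, Ehhadh and Pex11a the triangle of ob/ob 3 lies between the remaining ob/ob arrays and wild type.

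Of 14 genes of glucose metabolism 4 rose and 0 fell. Gpd1, the glycerol phosphate dehydrogenase that links glycolysis to glyceride synthesis, was at 14.91, 14.04 and 14.52 against 17.54, 17.78 and 16.59 (difference 2.81, SE 0.40, adjusted p = 0.00601). It is stable. Khk, which phosphorylates fructose, differed by 2.19 (SE 0.40) and the liver pyruvate kinase Pklr by 3.76 (SE 0.77). Fbp1, fructose bisphosphatase, was called at 1.66 (SE 0.39, adjusted p = 0.0483), and with the replicate block its adjusted p was 0.0749. Calls were lost without ob/ob 1 (3 lost), ob/ob 2 (3 lost), wild type 2 (3 lost), wild type 3 (3 lost), VE 1 (2 lost), VE 2 (2 lost) or VE 3 (2 lost), at adjusted p between 0.0521 and 0.167. Pck1, which sets the rate of gluconeogenesis, was at 17.49, 17.63 and 18.27 against 17.43, 17.32 and 16.80 (difference -0.61, SE 0.31, adjusted p = 0.349). In the glycogen list Ugp2 rose, 1 of 13 (difference 1.67, SE 0.36, adjusted p = 0.0375), and was lost without ob/ob 1 (1 lost), ob/ob 2 (1 lost), wild type 2 (1 lost), wild type 3 (1 lost), VE 1 (1 lost), VE 2 (1 lost) or VE 3 (1 lost), at adjusted p between 0.0572 and 0.136.

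In bile acid synthesis 2 of 16 genes rose and 2 fell. Besides Cyp7b1, the sterol hydroxylase Cyp27a1 fell (difference -1.98, SE 0.40), while the reductase Akr1d1 (2.18, SE 0.48) and the oxidase Acox2 (1.49, SE 0.31) rose, with adjusted p between 0.0291 and 0.0417. Those 3 were lost without ob/ob 1 (3 lost), ob/ob 2 (3 lost), wild type 2 (3 lost), wild type 3 (3 lost), VE 2 (3 lost) or VE 3 (2 lost), at adjusted p between 0.0564 and 0.15. Among 17 transporters 3 rose and 2 fell, and with the replicate block 5 rose and 2 fell. Slc22a7, the organic anion transporter OAT2, was at 7.43, 7.65 and 7.45 in wild type and 4.50, 5.23 and 5.37 in ob/ob, within the olfactory range (difference -2.48, SE 0.34, adjusted p = 0.00546). It is stable. The efflux pumps Abcb4 (phospholipid), Abcg2 and Abcc4 differed by 1.46 (SE 0.23), 2.37 (SE 0.40) and 3.35 (SE 0.61), and calls of these were lost without ob/ob 1 (2 lost), ob/ob 2 (3 lost), wild type 2 (3 lost) or wild type 3 (1 lost), at adjusted p between 0.0516 and 0.091.

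Of 21 drug-metabolising P450 genes 4 rose and 1 fell, and of 24 conjugating enzymes 7 rose and 1 fell. Cyp2c38 was at 11.41, 10.40 and 12.35 against 15.35, 16.27 and 14.77 (difference 4.08, SE 0.52, adjusted p = 0.00397), and like Cyp2c39 is stable. Cyp2b10, the usual marker of the receptor CAR, was at 8.46, 7.91 and 8.25 against 14.60, 14.93 and 11.10, with ob/ob 3 lower (difference 5.34, SE 0.83, adjusted p = 0.00977). Its call was lost without wild type 2 (adjusted p = 0.0594). Cyp2a5, a coumarin hydroxylase, was at 18.37, 17.50 and 15.58 against 19.36, 19.86 and 19.78, with wild type 3 low (difference 2.52, SE 0.56, adjusted p = 0.0421). Cyp1a2, a pericentral enzyme, was called lower at -2.79 (SE 0.63, adjusted p = 0.0449) and lost with the replicate block (adjusted p = 0.065). P450 calls were lost without ob/ob 1 (2 lost), ob/ob 2 (2 lost), ob/ob 3 (1 lost), wild type 1 (1 lost), wild type 2 (3 lost), wild type 3 (1 lost), VE 1 (2 lost), VE 2 (1 lost) or VE 3 (2 lost), at adjusted p between 0.0511 and 0.169. The glutathione transferase Gsta2 was at 11.90, 12.39 and 12.41 against 16.41, 16.69 and 15.36 (difference 3.92, SE 0.43, adjusted p = 0.00196). Gstm2 and Gstm4 differed by 3.92 (SE 0.56) and 3.62 (SE 0.46), at adjusted p = 0.0065 and 0.00397. These 3 are stable. Gstm3 reached 18.60, 18.64 and 16.36 from 12.41, 10.89 and 11.39 (difference 6.30, SE 0.94, adjusted p = 0.00812). Gstp1, higher in male liver, fell: 17.26, 17.58 and 17.12 against 14.65, 14.44 and 13.87 (adjusted p = 0.013). Transferase calls were lost without ob/ob 1 (3 lost), ob/ob 2 (4 lost), wild type 2 (5 lost), wild type 3 (3 lost), VE 1 (2 lost), VE 2 (2 lost) or VE 3 (2 lost), at adjusted p between 0.0507 and 0.167.

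Of 23 genes of the NRF2 and antioxidant list 8 rose and 0 fell, and 22 of 23 differences were positive, with a median of 1.23. The stable one was Nqo1, a quinone reductase, at 6.22, 6.97 and 5.79 against 9.81, 10.04 and 9.61 (difference 3.49, SE 0.42, adjusted p = 0.00326). Srxn1, which repairs peroxiredoxins, was at 4.17, 4.97 and 4.15 against 9.77, 9.18 and 7.09 (difference 4.25, SE 0.82, adjusted p = 0.0254). Gpx4, the lipid peroxide reductase, was highest on ob/ob 3, at 17.54 against 15.60 and 15.74 (difference 2.77, SE 0.46, adjusted p = 0.0136). Hmox1, Gsr, Taldo1, Ephx1 and Nfe2l2 differed by 1.18 to 2.05. Calls were lost without ob/ob 1 (6 lost), ob/ob 2 (6 lost), wild type 1 (2 lost), wild type 2 (7 lost), wild type 3 (4 lost), VE 1 (2 lost), VE 2 (4 lost) or VE 3 (2 lost), at adjusted p between 0.0513 and 0.156. The antioxidant response element, searched as TGACNNNGC, is in 10.1% of all promoters and in 10.4% of those of genes that rose. Of the list's own promoters 4 of 19 hold it (21.1%), and 1 of the 6 of its called members.

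Metallothioneins bind zinc and are induced by metals, glucocorticoids and inflammation. Mt1 was at 11.69, 12.47 and 10.75 against 16.86, 16.49 and 17.27 (difference 5.24, SE 0.74, adjusted p = 0.00593), and is stable. Mt2 was at 9.01, 7.99 and 7.85 against 15.44, 14.31 and 16.20 (difference 7.03, SE 1.15, adjusted p = 0.0127), and its call was lost without ob/ob 1 (adjusted p = 0.0532) or wild type 2 (0.0663). In both genes ob/ob 3 was the highest array. They were the 2 called of 10 genes of metallothioneins and zinc transport. The promoter of Mt2 is shown because it holds 5 matches to TGCNCNC, searched here as a loose form of the core of the metal response element. Of all promoters 43.8% hold this pattern at least once and 0.311% at least 5 times. The Mt2 window lies at chr8:94172368-94172617 on the plus strand in GRCm38.p6, and capitals mark the matches on either strand.
Mt2: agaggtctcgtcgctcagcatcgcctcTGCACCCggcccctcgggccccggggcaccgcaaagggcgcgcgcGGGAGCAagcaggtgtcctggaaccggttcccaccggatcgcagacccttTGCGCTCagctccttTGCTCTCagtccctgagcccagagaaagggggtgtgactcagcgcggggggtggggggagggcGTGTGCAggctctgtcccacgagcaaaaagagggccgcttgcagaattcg
The same window of Mt1, before the 1 start listed for it, has 1 match. Sites outside these windows were not searched, so the counts do not compare the 2 genes beyond them. Of the promoters of genes that rose 49.2% hold a match. Ftl1, the ferritin light chain, was at 17.20, 16.41 and 16.69 against 18.62, 18.75 and 19.06 (difference 2.04, SE 0.27, adjusted p = 0.00414). It was the 1 called of 15 iron genes (2 with the replicate block), and stable.

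Some acute phase genes split by mouse. Of 21, 4 rose and 0 fell. Without overlap 8 were higher and 2 lower, beside 9.71% and 9.78% of all clusters. After quantile normalization 3 were called higher and 2 lower. The orosomucoid genes Orm2 and Orm3 were stable: Orm3 was at 4.90, 4.93 and 4.58 in wild type, within the olfactory range, and at 9.37, 10.57 and 11.46 in ob/ob (difference 5.66, SE 0.55, adjusted p = 0.000822). Orm2 differed by 4.70 (SE 0.60, adjusted p = 0.00397). Lcn2, which binds bacterial siderophores, was at 4.51, 5.41 and 4.43 against 10.77, 10.25 and 15.71 (difference 7.46, SE 1.37, adjusted p = 0.0199). The serum amyloid genes, named after their values were seen, stood out on 1 array. Saa2 was at 8.76, 10.16 and 8.71 in wild type and at 10.61, 11.81 and 18.75 in ob/ob, and Saa1 at 7.02, 8.12 and 7.43 against 8.01, 9.03 and 15.76. Neither was called (adjusted p = 0.215 and 0.35), and the level on ob/ob 3 was about 7 above that on ob/ob 1 and 2. Lbp was called at 1.48 (SE 0.32, adjusted p = 0.0384) and lost with the replicate block (adjusted p = 0.0572). List calls were lost without ob/ob 1 (1 lost), ob/ob 2 (1 lost), wild type 1 (1 lost), wild type 2 (2 lost), wild type 3 (2 lost) or VE 3 (1 lost), at adjusted p between 0.06 and 0.142. Lcn2, Mt1, Mt2 and Orm3 were also highest on ob/ob 3, and the part of the serum amyloid level in their values was not tested.

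Complement and clotting genes fell where they changed: of 31, 7 were lower and 0 higher. C6, a component of the membrane attack complex, was at 15.10, 15.77 and 15.04 against 9.43, 9.13 and 8.76 (difference -6.20, SE 0.63, adjusted p = 0.00113). F11, clotting factor XI, was at 11.13, 10.98 and 10.47 against 8.76, 7.83 and 7.45 (difference -2.85, SE 0.35, adjusted p = 0.00345). Both are stable. C8a and C8b, further parts of the same complex, differed by -3.39 (SE 0.56) and -4.47 (SE 0.97), with ob/ob 3 the highest ob/ob array in each. Proc, protein C, and C2 were at -1.50 (SE 0.28) and -2.13 (SE 0.40). Hc, complement C5, was at -1.36 (SE 0.31, adjusted p = 0.0445), and 0.0608 with the replicate block. Calls were lost without ob/ob 1 (4 lost), ob/ob 2 (5 lost), wild type 1 (2 lost), wild type 2 (5 lost), wild type 3 (4 lost), VE 1 (1 lost), VE 2 (2 lost) or VE 3 (1 lost), at adjusted p between 0.0532 and 0.161.

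Of 14 periportal genes 1 rose and 2 fell, and the median difference was -0.64. Without regard to the test, 3 were higher and 6 lower without overlap, beside 9.71% and 9.78% of all clusters. With the interquartile range of each array as a covariate 5 were called lower. E-cadherin, Cdh1, an adhesion protein of periportal hepatocytes, was at 9.73, 9.15 and 9.74 against 5.08, 5.58 and 5.29, with 2 of the 3 ob/ob values within the olfactory range (difference -4.22, SE 0.26, adjusted p = 2.39e-05). Aldh1b1, a mitochondrial aldehyde dehydrogenase, rose from 6.78, 6.01 and 6.39 to 9.35, 9.20 and 8.02 (difference 2.46, SE 0.36, adjusted p = 0.00724). With Igfbp2 they were the 3 called periportal genes, and all 3 are stable. Of 14 pericentral genes Cyp1a2 and Cyp27a1 were called lower, and both are described above as not stable. In the list of adhesion and cytoskeleton the tubulin genes Tubb2a, Tuba1c and Tubb4b rose by 4.90 (SE 0.96), 2.82 (SE 0.58) and 1.58 (SE 0.37), and calls were lost without ob/ob 1 (3 lost), ob/ob 2 (3 lost), wild type 1 (1 lost), wild type 2 (3 lost), wild type 3 (3 lost), VE 1 (1 lost), VE 2 (2 lost) or VE 3 (2 lost), at adjusted p between 0.0543 and 0.181. After quantile normalization the adjusted p of these 3 lay between 0.0506 and 0.0512.

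**Figure D3:**
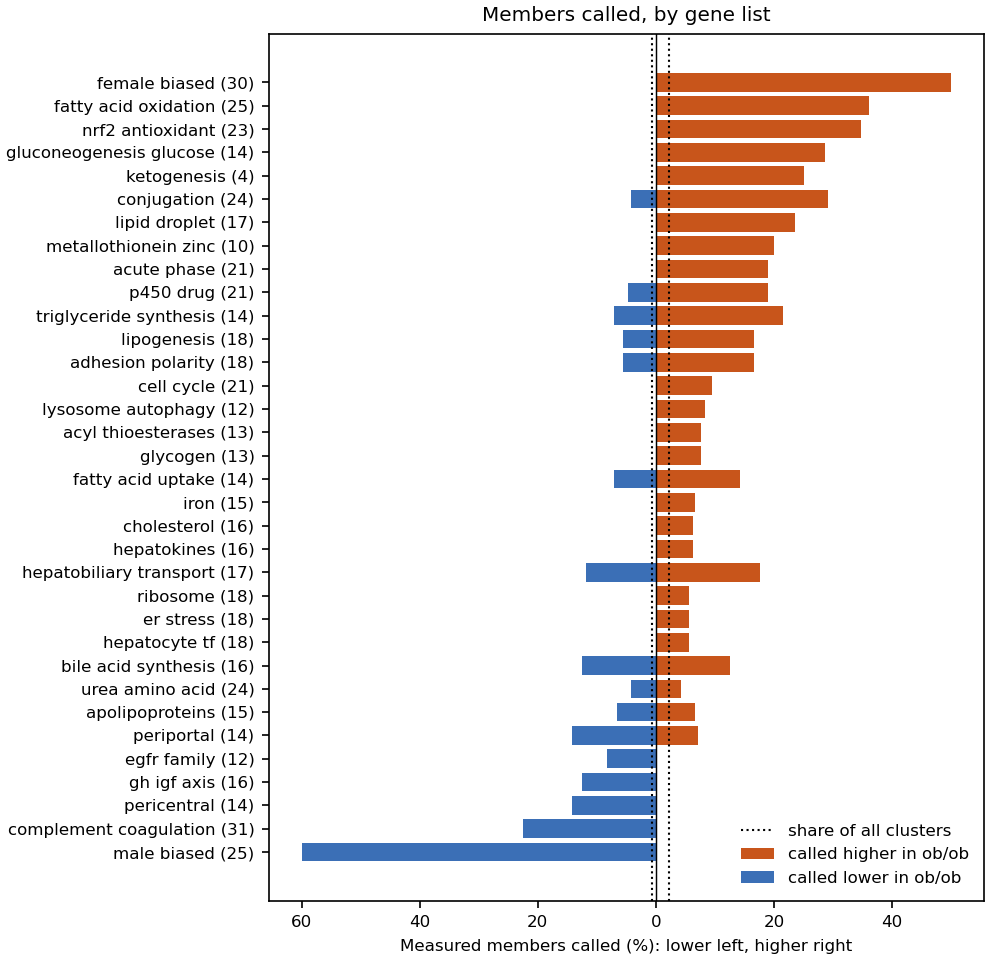
Share of the measured members of each gene list that was called higher (right, orange) or lower (left, blue) in ob/ob, for lists with at least 1 call; the number measured stands in brackets and the dotted lines give the share of all clusters (2.28% higher, 0.68% lower). The male-biased and female-biased lists have the largest shares. Complement and clotting genes follow on the lower side, and fatty acid oxidation and NRF2 genes on the higher side. Among clusters above the olfactory range on every array of at least 1 group, 6.15% were called higher and 1.69% lower. The lists were chosen with earlier results of these data known, so their order is descriptive only.

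Several lists gave no call. Of 17 clock genes, 20 genes of the integrated stress response, 24 chemokine and cytokine genes and 19 interferon genes limma called 0. At an unadjusted p under 0.05 there were 2 lower clock genes, 3 lower stress response genes, 2 higher and 1 lower chemokine and cytokine genes, and the same numbers of interferon genes. The nearest to the threshold were Tnfrsf1a, a receptor of tumor necrosis factor, at 8.23, 7.34 and 6.76 against 11.42, 10.59 and 8.31 (difference 2.66, SE 0.67, adjusted p = 0.0658, and 0.0262 with the replicate block, which calls it), and Stat2 of interferon signalling (difference -1.77, SE 0.46, adjusted p = 0.0741). On these arrays 10 of the chemokine and cytokine genes and 10 of the interferon genes lay within the olfactory range on all 6 arrays, so low levels limit what could be seen. On simulated data 7.46% of 67 clusters changed by 1 were recovered, 65.7% of 67 changed by 2 and 93.9% of 66 changed by 4. In such data, where all arrays have the same spread, a change of 1 would mostly be missed with 3 mice per group. The cell cycle list did have calls: of 21 genes 2 rose and 0 fell. Its differences were positive in 20 and negative in 1, with a median of 0.56. Without overlap 9 were higher and 0 lower, beside 9.71% and 9.78% of all clusters. On all 6 arrays 9 of the 21 lay within the olfactory range. Cdkn1a, the inhibitor p21, was at 4.77, 4.43 and 3.92 against 9.38, 7.94 and 7.07 (difference 3.76, SE 0.58, adjusted p = 0.00964), and its call was lost without wild type 2 (adjusted p = 0.0516). Birc5 stayed within the olfactory range on all 6 arrays although it was called. Of 24 genes of urea and amino acid metabolism Gpt2 rose (2.71, SE 0.44) and Agxt fell (-2.10, SE 0.48, adjusted p = 0.0456, and 0.0532 with the block). Calls were lost without ob/ob 1 (2 lost), ob/ob 2 (1 lost), wild type 1 (1 lost), wild type 2 (2 lost), wild type 3 (1 lost) or VE 2 (1 lost), at adjusted p between 0.0516 and 0.152. Other lists had 1 call each, all rises that were not stable. Acot3, a peroxisomal thioesterase and 1 of 13 in its list (2 with the replicate block), was at 6.26, 5.76 and 4.94 against 10.94, 12.96 and 8.31 (difference 5.08, SE 0.94, adjusted p = 0.0207). Inhbe, a hepatokine gene that encodes the activin E subunit (1 of 16), was at 8.13, 7.81 and 4.51 against 12.57, 11.71 and 9.81 (difference 4.55, SE 0.96, adjusted p = 0.0358). In both, array 3 was the lowest of each group. The chaperone Dnajb9 (1 of 18 in the list of endoplasmic reticulum stress), the lysosomal lipase Lipa (1 of 12) and the elongation factor Eef1b2 (1 of 18 in the ribosome list) differed by 2.01 (SE 0.36), 2.00 (SE 0.40) and 1.39 (SE 0.29). The call of Acot3 was lost without ob/ob 1, ob/ob 2, wild type 2 or wild type 3, at adjusted p between 0.0519 and 0.0844. That of Inhbe was lost without ob/ob 1, ob/ob 2, wild type 2, wild type 3, VE 1, VE 2 or VE 3, at adjusted p between 0.0572 and 0.137. Dnajb9 was lost without ob/ob 2 or wild type 2, at adjusted p between 0.0773 and 0.0838, Lipa without ob/ob 1, ob/ob 2, wild type 2, wild type 3 or VE 2, at adjusted p between 0.0574 and 0.119, and Eef1b2 without ob/ob 1, ob/ob 2, wild type 2, wild type 3, VE 1, VE 2 or VE 3, at adjusted p between 0.0555 and 0.131.

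Markers of other cells were measured in the same RNA. Whole liver holds many cell types, and fewer cells of a type and less RNA per cell cannot be told apart in it. Of 11 Kupffer cell, 11 sinusoidal endothelial, 12 stellate and fibrosis, 7 neutrophil and 5 B cell markers limma called 0, and at an unadjusted p under 0.05 there were 4 higher (2 Kupffer, 2 stellate) and 2 lower (1 endothelial, 1 B cell). The Kupffer markers summed to 67.9 to 74.9 in wild type and 73.9 to 76.2 in ob/ob. Themis, known for T cell development, rose from within the olfactory range (4.84, 3.07 and 5.09) to 11.17, 10.76 and 11.27 (difference 6.73, SE 0.53, adjusted p = 0.00019), and is stable. Of the 11 T and NK cell markers 9, the receptor chain gene Cd3e among them, lay within that range on all 6 arrays, with Cd3e at 2.78 to 3.20. Of 8 markers of lipid-associated macrophages Cd63 rose (1.40, SE 0.23; with the replicate block 2 rose) and Fabp5 fell, and Trem2, which defines these cells, lay at 3.04 to 3.41. Mmp12, a macrophage elastase, was at 4.93, 4.75 and 4.33 against 8.55, 8.61 and 6.93, and was not called (adjusted p = 0.0578). Calls of this list were lost without ob/ob 1 (2 lost), ob/ob 2 (1 lost) or wild type 2 (2 lost), at adjusted p between 0.0516 and 0.0754. Of 7 fat cell markers Fabp4 was called, and 5 lay within the olfactory range throughout, with Adipoq at 3.06 to 3.49. The 16 muscle markers summed to 147.2 on wild type 2 and to 65.3 to 77.3 on the other 5 arrays, and limma called 0 (2 lower at an unadjusted p under 0.05). Their part in other genes of wild type 2 was not tested. Bile duct, pancreas, red cell and kidney or intestine markers gave 0 calls of 24, with 2 higher at an unadjusted p under 0.05.

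**Figure D4:**
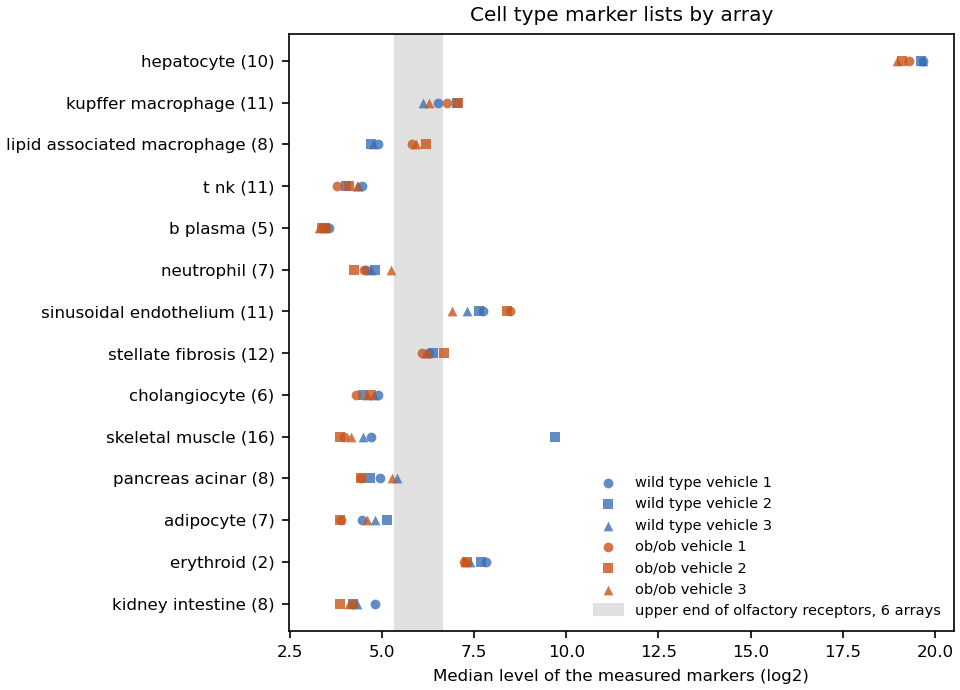
Median log2 level of the measured markers of each cell type (number in brackets), 1 point per array, with the grey band at the upper end of the olfactory receptor genes on the 6 arrays (5.35 to 6.62). Hepatocyte markers lie near the top on every array; skeletal muscle markers are high on wild type 2 only (9.69), while T and NK cell, B cell, bile duct, pancreas and kidney or intestine markers lie below 5.5 throughout.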

How the data were processed

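Liver RNA was measured on 9 Clariom S mouse arrays, 3 per group, of which 6 are compared here. The authors deposited log2 expression values, 1 per transcript cluster and array. Values were normalized by SST-RMA, per the series' design text, in Transcriptome Analysis Console 4, per the submitters' processing notes. The genome build of the array is not given in the sources used here. Of 22206 clusters 19572 had 1 gene symbol, and 0 columns were left unmapped.

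The 9 arrays were fitted together, with 1 mean for each group, in limma 3.58.1 (lmFit and eBayes, R 4.3.3), with 6 residual and 4.45 prior degrees of freedom, after the analysis of variance that the design text names. The contrast was ob/ob vehicle minus wild-type vehicle. The Benjamini-Hochberg adjustment ran over all clusters, with calls at 0.05. All adjusted p in the text are from limma. The fit was tested on simulated data of 22206 clusters, where it called 4 of 22006 unchanged ones. The simulated noise was independent between clusters and had the same spread on every array. The real arrays differ in this, so the simulated rates need not hold for them. A list's median uses 1 cluster per symbol. The 40 pathway lists and 14 marker lists held 891 genes, 799 of them measured. The members and lists were chosen with earlier results of these data known, so lists are described by counts and medians only.

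Named genes are, among clusters with 1 symbol that is no predicted, olfactory, vomeronasal or small RNA gene, up to 15 called per direction with the largest non-overlapping difference. To these the rule adds every called list member, up to 3 further members per list by smallest p, Lep, Lepr and the cell markers. Others are said to be outside it. Same-numbered arrays deviated together (r = 0.256, 0.262 and 0.45 over clusters, all over 0.1), which meets the rule for a replicate block, although the labels do not say what a number marks. Numbers 1 and 2 were not told apart by it: ob/ob 2 with wild type 1 gave 0.26 and ob/ob 1 with wild type 2 gave 0.218, and only the arrays numbered 3 stood apart from the rest. The alternatives were other sample sets, weights, normalizations, filters, a covariate, the block and the design text's criterion. The promoters are RefSeq's for GRCm38.p6, 250 bases before the start, matched by symbol. For arrays, the number of mice limits the precision.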

Additional observations from a re-analysis of the deposited data

How the results depend on the processing

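Of the alternatives fitted, 0 reversed any of the 658 calls, and 125 clusters were called in every planned one. The fit on only the 6 arrays called 207 clusters (145 higher, 62 lower), of which 198 were among the 658. Array weights gave 2137 (1522 and 615). Quantile normalization gave 290 higher and 256 lower, and the interquartile range as a covariate 312 lower. With only clusters above the olfactory receptor range in 1 group, 761 were higher. Without both arrays that stand apart there were 1745 (1267 and 478). The design text's criterion, an unadjusted p under 0.05 with a fold over 1.1, gave 3771 (2279 and 1492), 17% of all. Leaving out 1 array gave 147 to 1679 clusters, 104 to 1350 higher and 43 to 329 lower.

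With the replicate number as a block 579 clusters were called (465 higher, 114 lower), and 511 of them were among the 658. The block ended the calls of Agxt, Birc5, Cyp1a2, Fbp1, Hc, Lbp and Serpina12 and of no other gene named as called. Other alternatives ended more calls among the 126 genes tested under the naming rule. The fit on only the 6 arrays ended 53, the covariate 30 and quantile normalization 25. On only the 6 arrays the calls fell from 9 to 4 in fatty acid oxidation and from 8 to 2 in the NRF2 list. The 6 arrays with the block, a fit chosen after seeing the data, called 881 (690 and 191). Subtracting array medians moved the median difference of all clusters by 0.12. Medians of lists moved further and small ones changed sign: after quantile normalization the respiratory chain went from 0.28 to -0.06, adhesion from 0.20 to -0.21 and fatty acid uptake from 0.17 to -0.12, and with the covariate glucose genes went from 0.68 to -0.23. The number of mice, levels within the olfactory range and values at an array's top limit what could be seen.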

Other observations

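Further genes that kept their call whichever of the 9 arrays was left out stand outside the naming rule and were chosen after their values were seen. In lipid and membrane handling, Chpt1, the choline phosphotransferase of phosphatidylcholine synthesis, was at 12.13, 11.65 and 11.65 in wild type and 15.89, 15.66 and 15.68 in ob/ob (log2 difference 3.93, SE 0.28, adjusted p = 9.54e-05). Slc25a10, the mitochondrial dicarboxylate carrier, was at 11.35, 11.51 and 11.20 against 15.54, 15.67 and 13.51 (difference 3.55, SE 0.50). The phospholipid-binding annexin Anxa5 was at 10.37, 9.90 and 10.31 against 14.28, 13.54 and 14.29 (difference 3.84, SE 0.46). Mlec, a lectin of the endoplasmic reticulum, differed by 4.24 (SE 0.36) and Rcan2, an inhibitor of calcineurin, by 4.56 (SE 0.31), the latter from within the olfactory range. Gas6, the ligand of the receptors AXL and MERTK, rose by 3.00 (SE 0.41), and Mme, the endopeptidase neprilysin, by 3.96 (SE 0.44). Aldh1a1, which makes retinoic acid, was at 17.63, 17.13 and 17.11 against 19.29, 19.46 and 19.18 (difference 2.02, SE 0.24), and its neighbour in sequence Aldh1a7 rose by 2.38 (SE 0.30). Of these adjusted p the highest was 0.00581.

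On the lower side, Ces3b, a carboxylesterase, and Abca8a, a lipid transporter of the ABC family, fell within the rule by 4.22 (SE 0.58) and 3.86 (SE 0.59). Outside it, Aox3, the aldehyde oxidase, was at 15.44, 16.31 and 16.21 against 13.29, 13.22 and 13.36 (difference -2.70, SE 0.36, adjusted p = 0.00501). A pair of organic anion transporter relatives went opposite ways: Slc22a28 was at 13.41, 13.56 and 13.19 against 10.43, 10.23 and 10.05 (difference -3.15, SE 0.31, adjusted p = 0.000925), and Slc22a27 rose from within the olfactory range to 9.30, 9.08 and 9.61 (difference 4.79, SE 0.61, adjusted p = 0.00397). Mup6 fell by 3.51 (SE 0.33, adjusted p = 0.000652). Avpr1a, the vasopressin receptor of hepatocytes, was at 7.16, 5.63 and 6.07 against 3.51, 3.77 and 2.88 (difference -2.90, SE 0.39, adjusted p = 0.00476), with the ob/ob values and 2 wild-type values within the olfactory range. Galectin-1, Lgals1, and the surface protein Ly6d are under the rule, in no list, and stable: Lgals1 was at 8.25, 7.70 and 9.09 against 14.04, 13.87 and 14.22, and Ly6d at 4.09, 4.10 and 3.38 against 11.99, 12.25 and 12.68.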
